A study of Mus musculus with 2 samples.

Results

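The genes described here are 10 genes of lipoprotein handling and cholesterol efflux, taken by symbol from a list: Abca1, Abcg1, Apoe, Apod, Pltp, Lcat, Scarb1, Lrp1, Vldlr and Lipa. All 10 were present in the table of 46095 genes, and all 10 passed the filter of 10 counts in the sum of the libraries, as did 17356 genes, which were tested. The study asked how the transcriptome of differentiating adipocytes differs when the long noncoding RNA MALAT1 is depleted, and sequenced 1 library of control cells and 1 library of MALAT1-knockdown cells. Both came from C3H10 cells, a mouse embryonic mesenchymal line with the ability to form adipocytes, which the labels record as C57BL/6 although its name refers to C3H mice. Control cells (ASO NC) were transfected with a negative control antisense oligonucleotide and knockdown cells (ASO MALAT1) with an antisense oligonucleotide against MALAT1, each at 100 nM. Afterwards both were grown to confluence and induced with isobutyl-1-methylxanthine, dexamethasone, troglitazone and insulin, followed by insulin alone, and were collected on day 6 of differentiation. Troglitazone is itself a ligand of PPAR-γ and was given to both. Such a culture can hold cells that did not differentiate beside adipocytes, and fewer adipocytes and less RNA per adipocyte cannot be told apart in these libraries.

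Cells that store fat also hold a large pool of free cholesterol, and they exchange it with lipoproteins. ABCA1 and ABCG1 export cholesterol and phospholipid to lipid-poor apolipoproteins and to HDL, SR-BI (Scarb1) lets cholesterol pass between HDL and the cell membrane, and PLTP and LCAT remodel the particles outside the cell. Apolipoproteins such as APOE are carried on the particles and bind endocytic lipoprotein receptors, among them LRP1 and the VLDL receptor, after which lysosomal acid lipase (Lipa) splits the cholesteryl esters taken up. The liver X receptors LXRα (Nr1h3) and LXRβ (Nr1h2) sense oxysterols and, with RXR, switch on the genes of efflux and of fatty acid synthesis.

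Depth was 58147539 counts for control and 61653549 counts for knockdown cells. Malat1 itself, the targeted gene, had 170402 and 45396 counts, which left 24.7% of the control level. Levels are given as counts, as counts per 1000000 counts after scaling by edgeR's TMM factors (CPM), or as CPM per kilobase of exon where genes are compared with each other. Changes are given as the log2 ratio of knockdown over control cells, with 95% Clopper-Pearson intervals. A two-sided exact binomial test with Benjamini-Hochberg adjustment over all genes tested was used, and calls needed an adjusted p below 0.05 together with a change of at least 2-fold or, as a lower bar, at least 1.5-fold. With 1 library per group there is no replicate check of any difference. What is tested is the difference between these libraries and not that between conditions, and the intervals cover counting error only. Mature adipocyte markers were mostly abundant in control cells, but Car3 (59 and 25 counts) and Slc2a4 (26 and 17 counts) were rare in both libraries. In knockdown cells 18 of 18 were below control, 15 were called lower at 2-fold (all genes: 4.09%) and the median log2 ratio was -1.27. Their summed level was 9015 CPM in control and 3983 CPM in knockdown cells. Fibroblast and preadipocyte markers had a median of 0.19, with 14 of 16 tested above control and a summed level of 24297 and 26851 CPM. The part of either shift in the results below was not tested.

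Both efflux transporter genes of the group, Abca1 and Abcg1, were lower in MALAT1-knockdown cells, as was Scarb1. Abca1 was at 59.4% of its control level, Abcg1 at 68.3% and Scarb1 at 67.7%. Vldlr was slightly lower, Lrp1 and Apod were above control by a few percent, and Apoe, Pltp, Lcat and Lipa did not pass the test. At the 2-fold bar 0 of the 10 genes were called, against 2.19% of all genes tested called higher and 4.09% called lower. At 1.5-fold 1 gene, Abca1, was called lower (all genes: 7.26%) and 0 were called higher (all genes: 4.37%). Without a fold threshold 2 of the 10 genes were higher and 4 were lower at an adjusted p under 0.05, where the shares of all genes tested were 24.2% and 23.8%. The median log2 ratio of the 10 genes was -0.06, beside 0.00 for all genes tested. Of the 8251 genes with a mean of at least 1000 counts, which include 9 of the 10, 0.739% were called lower and 0.0121% higher at 2-fold, and 2.84% lower and 1.43% higher at 1.5-fold. Without a fold threshold 30.1% of them were lower and 35.2% higher. Their median log2 ratio was 0.01, and 5% of them lay below -0.43. Abca1, Abcg1 and Scarb1 lay below that value and the other 6 above it.

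**Figure D1:**
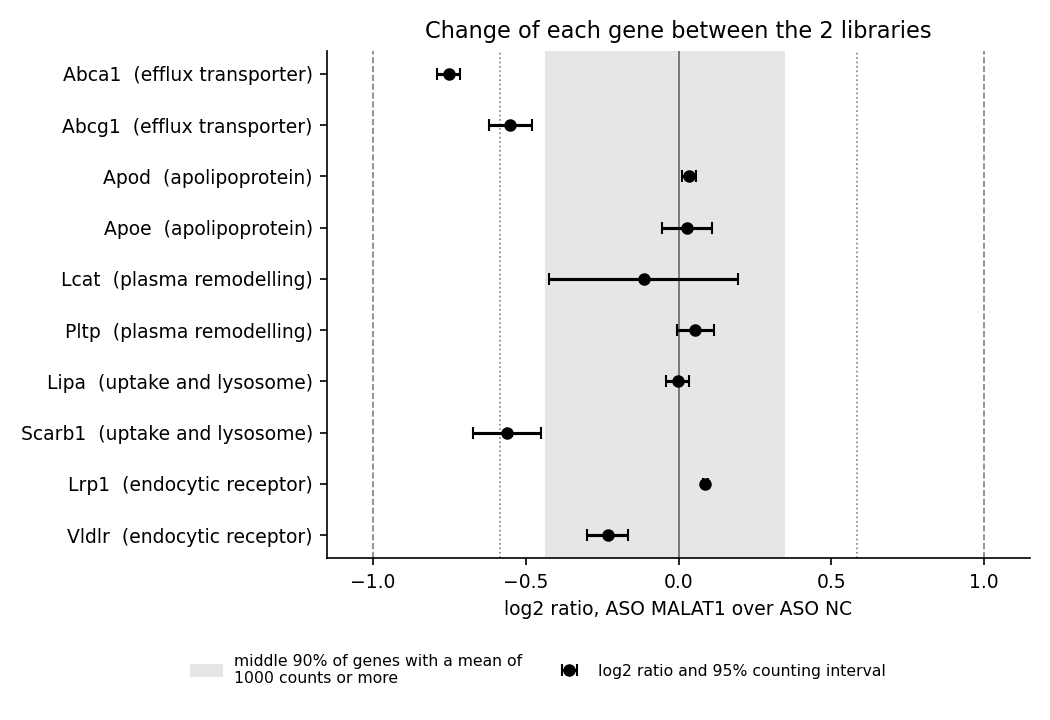
Log2 ratio of each gene between the 2 libraries (x axis), by role (y axis); bars are 95% counting intervals, dotted lines mark 1.5-fold, dashed lines 2-fold, and the grey band holds the middle 90% of genes with a mean of at least 1000 counts. Abca1 (-0.75), Scarb1 (-0.56) and Abcg1 (-0.55) lie left of the band, and the other 7 genes lie within it.

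The levels of the 10 genes covered a wide range. In CPM per kilobase of exon, Lrp1 stood highest, with 242 in control and 257 in knockdown cells, and Apod was next, with 197 and 202. Lrp1 alone held 77.6% of the counts of the 10 genes in the control library. A middle group was made up of Lipa (28.5 in control cells), Pltp (28.0), Abca1 (24.7) and Apoe (18.8). Lipa and Pltp did not differ beyond their counting intervals in control cells, from 28.0 to 29.1 for Lipa and from 27.2 to 28.9 for Pltp. Abcg1 (9.31), Vldlr (6.75), Scarb1 (3.21) and Lcat (2.30) followed. In knockdown cells Abca1, at 14.7, ranked below Apoe, at 19.1, whereas it had stood above Apoe in control cells. Scarb1 was then at the level of Lcat by this measure, with 2.18 (interval 2.05 to 2.31) and 2.12 (interval 1.82 to 2.46) per kilobase. The measure divides by the union of all annotated exons, 8500 bases over 11 transcripts for Scarb1 and 1342 bases over 1 transcript for Lcat. Ranks between genes, that of Abca1 and Apoe included, depend on this choice of length, which the counting intervals do not cover.

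**Figure D2:**
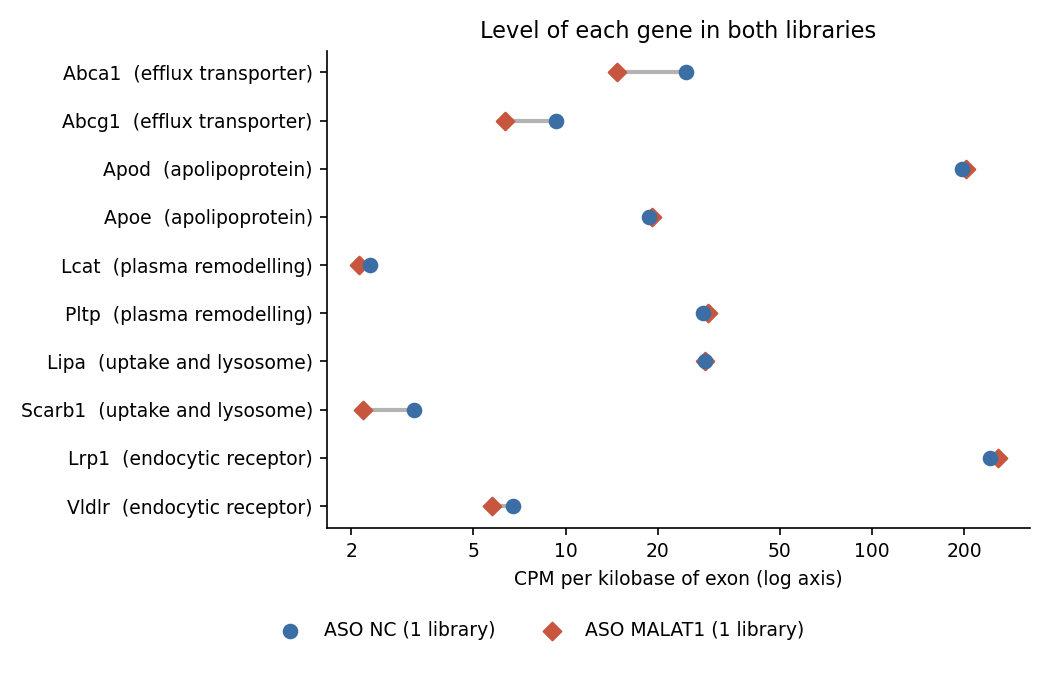
Level of each gene in CPM per kilobase of exon (x axis, log scale) in the control library (circles) and the knockdown library (diamonds). Abca1, Abcg1 and Scarb1 are the genes whose symbols lie farthest apart, and Lrp1 and Apod stand highest in both libraries.

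ABCA1 loads lipid-poor apolipoproteins with cholesterol and phospholipid, the first step in forming HDL. Abca1 (chromosome 4 from 53030787 to 53159895, minus strand, GENCODE M21 on GRCm38) had 14781 counts in control and 9448 in knockdown cells, or 256 and 152 CPM. The log2 ratio of Abca1 was -0.75 (95% interval -0.79 to -0.71), the strongest of the 10 genes, and only 1.54% of the genes with a mean of at least 1000 counts had a lower one. ABCG1 passes cholesterol on to HDL particles that are already formed. Abcg1 (chromosome 17 from 31057675 to 31117988, plus strand) had 3920 and 2882 counts, or 67.9 and 46.4 CPM. This gave a log2 ratio of -0.55 (95% interval -0.62 to -0.48, exact binomial test, adjusted p = 1.06e-53 with Benjamini-Hochberg adjustment), short of the 1.5-fold bar, and 3.38% of abundant genes were lower. Both transporters were thus lower in the knockdown library, by amounts that differed beyond counting error. The log2 ratio of Abca1 was 0.20 below that of Abcg1, a difference of -0.20 with an exact conditional 95% interval from -0.28 to -0.12, which does not depend on how the libraries are scaled. Variation between cultures is not covered by this interval.

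Because Abca1 is a classical LXR target, its promoter was searched for the LXR response element. This element is a direct repeat with 4 bases between its copies (DR4), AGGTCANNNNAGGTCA on either strand. In the 250 bases before the transcription start that RefSeq gives on GRCm38.p6, 5 of 32851 promoters (0.0152%) held the DR4 with no mismatch, and none of the 8 of the 10 genes with a promoter in the table did. Abca1 and Lcat came within 3 mismatches, as did 18.5% of all promoters, and Apoe, Apod, Lipa, Lrp1, Pltp and Vldlr had 4 or 5. For Abcg1 and Scarb1, which were also lower, no promoter was available, so neither was searched. Sites outside the 250 bases were not looked for in any gene. The closest match in the Abca1 promoter and that in the promoter of Srebf1, another LXR target, shared all letters of GGGTTACTNNCGGTCA, which was searched next on both strands. These letters were read from the Abca1 and Srebf1 promoters themselves, so that their presence there is no finding. They were found in 3 of the 32851 promoters (0.00913%): Abca1, Srebf1 and Fasn, the gene of fatty acid synthase. The 3 sites are shown because Abca1 is the gene of the group that changed most. Each stretch of 30 bases is written on the strand of its gene, with the site in capitals, and all 3 read as the reverse complement of the letters above.
Abca1, chr4:53159940-53159969, minus strand: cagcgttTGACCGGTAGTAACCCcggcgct
Srebf1, chr11:60210631-60210660, minus strand: acgacagTGACCGCCAGTAACCCcagcgcg
Fasn, chr11:120824750-120824779, minus strand: gccacgaTGACCGGTAGTAACCCcgcctga
The site of Abca1 ends 52 bases before the start, that of Srebf1 167 bases and that of Fasn 210 bases before it. The 16 capital letters of Abca1 and Fasn are identical. The Srebf1 site lies inside the annotated gene (60199089 to 60222581, minus strand), so the start used there is an internal one. Counts are per gene and do not separate the 12 transcripts of Srebf1. In these libraries Srebf1 had 11183 counts in control and 8662 in knockdown cells, a log2 ratio of -0.48 (95% interval -0.52 to -0.43), and Fasn had 93506 and 45888, a log2 ratio of -1.13. Since the letters were taken from Abca1 and Srebf1, and Abca1 was picked for its change, no test was made of the direction of these genes. A match of letters is a description of the sequence and does not show that the receptor binds there.

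Of the receptors that read this element, Nr1h3, which encodes LXRα, had 1912 counts in control and 905 in knockdown cells, a log2 ratio of -1.19 (95% interval -1.30 to -1.07), and was called lower. Nr1h2, which encodes LXRβ, had 5034 and 5056 counts and a log2 ratio of -0.10 (95% interval -0.16 to -0.04, exact binomial test, adjusted p = 0.00154 with Benjamini-Hochberg adjustment). The partner receptor Rxra had 21626 and 18519 counts, a log2 ratio of -0.33 (95% interval -0.36 to -0.30, exact binomial test, adjusted p = 2.50e-114 with Benjamini-Hochberg adjustment). All 3 were lower by the test without a fold threshold, and Nr1h3 alone passed 2-fold. Of the 24 tested genes in a list of the LXR pathway and its targets, 18 were below control, as were 8744 of the 17356 genes tested. At 2-fold 4 genes of the list were called lower (all genes: 4.09%) and 0 higher (all genes: 2.19%), and the median was -0.36. The called genes were Nr1h3, Scd1 (111931 and 41856 counts), Fasn and Lpl (51462 and 21392 counts). Scd1, Fasn and Lpl are also genes of fat storage, and Lpl is among the mature adipocyte markers. The list includes 4 of the 10 genes described here, which went different ways: Abca1 and Abcg1 were lower, whereas Apoe and Pltp were not. Scd2, a further desaturase gene of the list, had a log2 ratio of -0.47. Pparg, the master factor of adipocyte differentiation, which also acts upstream of Nr1h3 in macrophages, had a log2 ratio of -0.57.

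The 2 apolipoprotein genes of the group were nearly level between the libraries. Apoe, which encodes the ligand through which remnant particles bind LRP1 and the VLDL receptor, had 2315 counts in control and 2541 in knockdown cells, or 40.1 and 40.9 CPM. The log2 ratio of Apoe was 0.03 (95% interval -0.05 to 0.11, exact binomial test, adjusted p = 0.629 with Benjamini-Hochberg adjustment). The gene is on chromosome 7 (19696109 to 19699188, minus strand). Apod, on chromosome 16 from 31296192 to 31314808, encodes a lipocalin carried on HDL that binds small lipids such as arachidonic acid. It was far more abundant, with 29297 and 32320 counts, or 508 and 520 CPM. Its log2 ratio of 0.04 (95% interval 0.01 to 0.06, exact binomial test, adjusted p = 0.00683 with Benjamini-Hochberg adjustment) passed the test, yet it amounts to 102% of the control level and lay near the middle of abundant genes, 44.6% of which were higher. The changes of Apoe and Apod differed by -0.01 on the log2 scale, with an exact conditional 95% interval from -0.09 to 0.08. The other apolipoprotein genes were mostly rare. Of 15 tested in the list of apolipoproteins, 3 were called lower (all genes: 4.09%) and 1 higher (all genes: 2.19%) at 2-fold, and the median was -0.21. Apol6, a member of the APOL family, had 2127 and 912 counts, a log2 ratio of -1.33. The other 3 rest on few counts, with 32 and 4 for Apoa4, 70 and 22 for Apoc3, and 3 and 16 for Apof. Clu, clusterin or apolipoprotein J, had 19228 and 18301 counts and a log2 ratio of -0.18.

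Of the genes that remodel particles outside the cell, Pltp encodes the phospholipid transfer protein, which moves phospholipid onto HDL. Pltp, on chromosome 2 from 164839518 to 164857711, had 4141 counts in control and 4631 in knockdown cells, or 71.8 and 74.5 CPM. Its log2 ratio was 0.05 (95% interval -0.01 to 0.12, exact binomial test, adjusted p = 0.137 with Benjamini-Hochberg adjustment). Exons of Ctsa on the opposite strand cover 19.3% of the exon bases of Pltp, and Ctsa had 16208 and 21063 counts. The library kit keeps the strand, but whether the counting used it is not given in the sources used here, so reads of the shared bases may not be told apart. Lcat, the enzyme that esterifies cholesterol on HDL and is made mainly by the liver, was the rarest of the 10 genes, with 178 and 177 counts, or 3.08 and 2.85 CPM. The log2 ratio of Lcat, on chromosome 8 from 105939551 to 105943382, was -0.11. Its 95% interval from -0.42 to 0.19 was the widest of the 10 (exact binomial test, adjusted p = 0.607 with Benjamini-Hochberg adjustment), so that levels from 74.6% to 114% of control lie within it and a change of that size was not detectable at this depth. The changes of Pltp and Lcat differed by 0.17, with an exact conditional 95% interval from -0.15 to 0.48. In the list of plasma lipases and lipid transfer, 11 genes were tested, 1 was called lower at 2-fold (all genes: 4.09%) and 0 higher (all genes: 2.19%), and the median was -0.11. The called gene was Lpl, lipoprotein lipase, at 38.6% of its control level. Pla2g15, a lysosomal phospholipase, had 4449 and 4136 counts and a log2 ratio of -0.21.

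The receptors that take up whole particles differed from each other. LRP1 is a large endocytic receptor of remnant particles, proteases and their inhibitors, and Lrp1 was the most abundant of the 10 genes. Lrp1, on chromosome 10 from 127538161 to 127621148, had 247486 counts in control and 283090 in knockdown cells, or 4289 and 4557 CPM. At this depth a log2 ratio of 0.09 (95% interval 0.08 to 0.10) passed the exact binomial test with an adjusted p of 1.16e-105 (Benjamini-Hochberg), although it stands for 106% of the control level and 33.3% of abundant genes were higher. The VLDL receptor binds triglyceride-rich particles and APOE and is found in adipose tissue, heart and muscle. Vldlr, on chromosome 19 from 27216484 to 27254231, had 3920 and 3592 counts, or 67.9 and 57.8 CPM. Its log2 ratio was -0.23 (95% interval -0.30 to -0.17, exact binomial test, adjusted p = 2.27e-11 with Benjamini-Hochberg adjustment), which left it at 85.1% of control. The changes of Vldlr and Lrp1 differed by -0.32, with an exact conditional 95% interval from -0.39 to -0.25. Elsewhere in the family, Lrp8, a receptor for APOE that is related to the VLDL receptor, was rare, with 175 and 343 counts, and its log2 ratio of 0.86 (95% interval 0.60 to 1.14) was past 1.5-fold but short of 2-fold. The abundant Lrp5 and Lrp6, which serve as Wnt co-receptors, had log2 ratios of 0.01 and 0.08. Of 16 genes tested in the list of this family and its adaptors, 0 were called at 2-fold in either direction (all genes: 4.09% lower and 2.19% higher), and the median was -0.04. Sort1, a gene of this list, was just short of the 2-fold bar, with 3939 and 2122 counts and a log2 ratio of -0.999.

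SR-BI, encoded by Scarb1, binds HDL and lets cholesterol pass in both directions across the membrane. Scarb1, on chromosome 5 from 125277087 to 125341094, had 1576 counts in control and 1149 in knockdown cells, or 27.3 and 18.5 CPM. This is a log2 ratio of -0.56 (95% interval -0.67 to -0.45, exact binomial test, adjusted p = 7.04e-23 with Benjamini-Hochberg adjustment), and 3.14% of abundant genes were lower. Lipa, on chromosome 19 from 34492318 to 34527474, encodes the lysosomal acid lipase. It had 11157 and 11991 counts, or 193 and 193 CPM, with a log2 ratio of 0.00 (95% interval -0.04 to 0.03, exact binomial test, adjusted p = 0.951 with Benjamini-Hochberg adjustment). The control level and the knockdown level of Lipa were thus the closest of the 10 genes. The changes of Scarb1 and Lipa differed by -0.56, with an exact conditional 95% interval from -0.68 to -0.44. Among 11 scavenger receptor genes and adaptors tested, 1 was called lower at 2-fold (all genes: 4.09%) and 0 higher (all genes: 2.19%). This was Pdzk1, an adaptor that binds the tail of SR-BI, with 38 and 9 counts. The more abundant members Scara5 (54633 and 58751 counts), Colec12 and Scara3 had log2 ratios of 0.00, 0.27 and 0.05.

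Most of the lysosomal and traffic genes listed with Lipa showed a similar narrow range, although Gramd1b among them had a log2 ratio of -0.95. All 26 genes in the list of lysosomal cholesterol release and traffic were tested, 0 were called at 2-fold (all genes: 4.09% lower and 2.19% higher), and the median log2 ratio was 0.00. Psap, the precursor of the saposins, had 164038 and 183572 counts, a log2 ratio of 0.06. Npc2, which hands cholesterol to NPC1 inside the lysosome, had 98008 and 94037 counts and a log2 ratio of -0.17, and Lamp1 had 58975 and 72483 counts and one of 0.19. In the cycle between free cholesterol and its esters, Soat1, which esterifies cholesterol in the endoplasmic reticulum, had 6614 and 7524 counts, a log2 ratio of 0.08. Lipe, the hormone-sensitive lipase that also splits cholesteryl esters and is a mature adipocyte marker, had 31129 and 15432 counts, a log2 ratio of -1.12, and was called lower. Ces1d, a carboxylesterase, had 2125 and 1399 counts and a log2 ratio of -0.71. Of 5 genes of this cycle tested, 1 was called lower (all genes: 4.09%) and 0 higher (all genes: 2.19%) at 2-fold. Srebf2, the factor behind cholesterol synthesis, had 13536 and 14136 counts and a log2 ratio of -0.04.

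**Figure D3:**
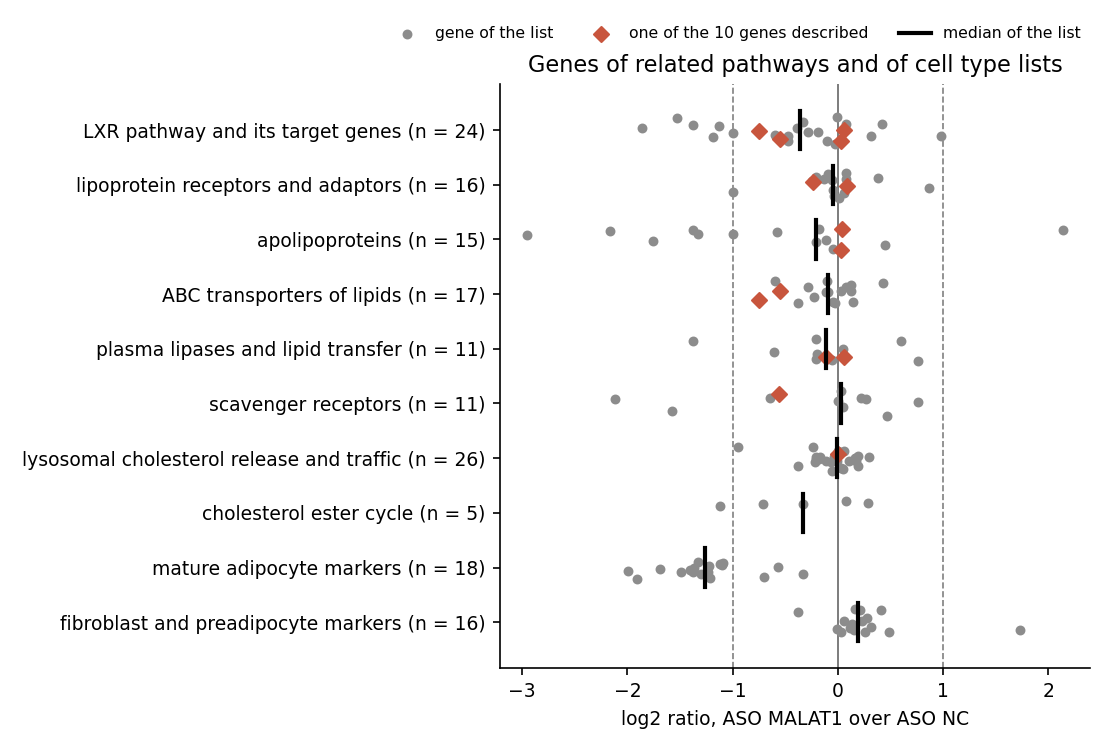
Log2 ratio (x axis) of every tested gene in 8 pathway lists and in 2 cell type lists (y axis), with the 10 genes described as diamonds and each list's median as a black bar; dashed lines mark 2-fold. Medians run from -0.36 for the LXR list to 0.03 for the scavenger receptors, against -1.27 for mature adipocyte markers and 0.19 for fibroblast and preadipocyte markers.

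Among lipid transporters of the ABC family, 17 genes were tested, of which 0 were called at 2-fold (all genes: 4.09% lower and 2.19% higher). At 1.5-fold 2 were called lower (all genes: 7.26%), Abca1 and the rarer Abcg4 (209 and 149 counts). The median was -0.09. Abca7, the closest relative of Abca1, had 3938 and 4462 counts and a log2 ratio of 0.07, and the peroxisomal Abcd3 had 4266 and 4281 counts and one of -0.10. Over the 8 pathway lists together, 116 genes were tested, of which 9 were called lower (all genes: 4.09%) and 1 higher (all genes: 2.19%) at 2-fold. The lower genes were Nr1h3, Scd1, Fasn, Lpl, Lipe, Apol6, Apoa4, Apoc3 and Pdzk1, and the higher gene was Apof. Of these, Apoa4, Apoc3, Pdzk1 and Apof rest on few counts. None of the 10 genes described here is in the hand-written list of mature adipocyte markers. The changes of Abca1, Abcg1 and Scarb1 were smaller than the median of those markers. The markers themselves ranged from a log2 ratio of -1.99 for Retn to -0.33 for Plin4, with Pparg at -0.57. The part of adipocyte content in the changes of Abca1, Abcg1 and Scarb1 was not tested.

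Abca1, Apoe, Pltp and Lipa are also known from macrophages, and Lcat and Scarb1 from the liver, so markers of these cells were examined. Of 15 macrophage markers, 8 had 0 counts in both libraries, among them Adgre1, Ptprc and Itgam, where a count of 0 allows up to 3 counts, or 0.0520 CPM in the control and 0.0483 CPM in the knockdown library. The summed level of this list was 126 and 116 CPM, nearly all of it from Mertk, with 6714 and 6536 counts. The list had 1 gene called higher at 2-fold, Lyz2, with 7 and 25 counts, and 0 called lower. Endothelial markers summed to 404 and 323 counts, with 2 genes called higher, Emcn (20 and 45 counts) and Vwf (12 and 30 counts), and 0 lower. Hepatocyte markers summed to 56.4 and 37.0 CPM, of which Cyp2e1 made up most, with 3055 and 2124 counts, and 1, Apoc3, was called lower. These calls are among 5 macrophage, 6 endothelial and 5 hepatocyte markers tested. Of all genes tested, 4.09% were called lower and 2.19% higher. The defining hepatocyte marker Alb had 33 and 20 counts. The levels of these lists therefore lay far below those of the adipocyte and fibroblast markers in both libraries.

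**Figure D4:**
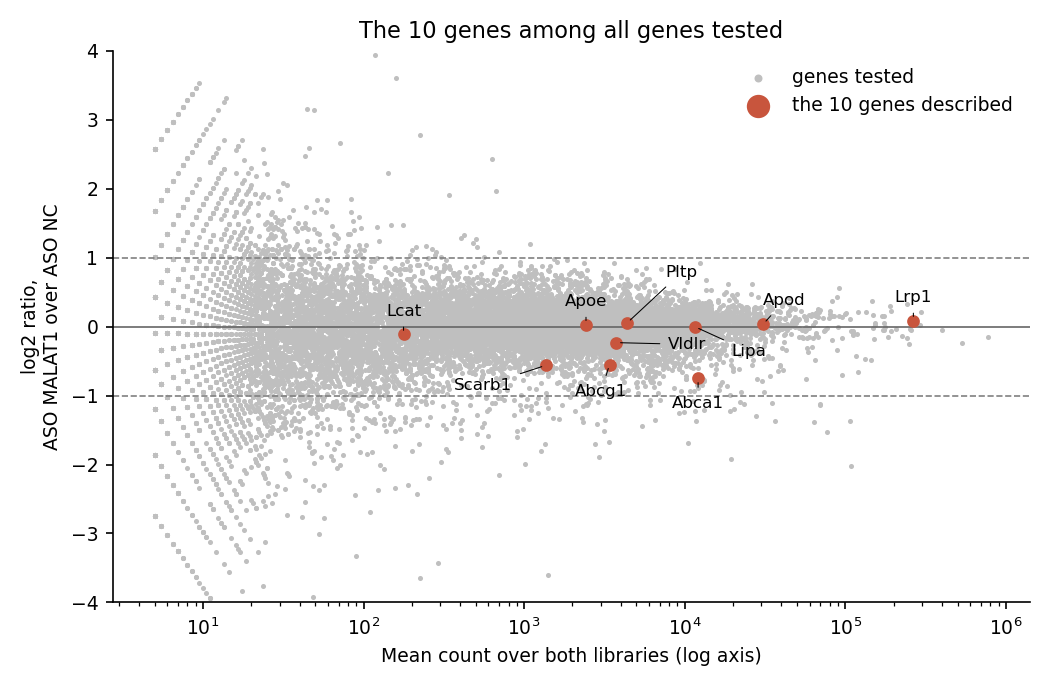
Log2 ratio (y axis, drawn from -4 to 4, which leaves out 60 genes) against the mean count over both libraries (x axis, log scale) for all 17356 genes tested, with the 10 genes described in red. Lcat sits where counting scatter is wide, Abca1 lies at the lower edge of the cloud at its level, and Lrp1 is among the most abundant genes of the table.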

How the data were processed

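C3H10 cells at day 6 of differentiation were sequenced as 1 control and 1 MALAT1-knockdown library from total RNA depleted of rRNA (NEBNext Ultra Directional kit). The authors deposited raw counts of reads per gene symbol, without normalization. The submitters' processing notes name HISAT2 and GRCm38. Versions, annotation, counting tool, strand setting and handling of multimapping or duplicate reads are not given in the sources used here, and counts of overlapping genes may be split differently by another setting.

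Library totals were 58147539 (control) and 61653549. They were scaled by TMM (edgeR 4.0.16, R 4.3.3). Because the usual count models (quasi-likelihood edgeR, DESeq2) require replicates, a two-sided exact binomial test (scipy 1.17.1) was applied to the 17356 genes whose counts summed to 10 or more, with Benjamini-Hochberg adjustment over them. The test was run on simulated counts that held counting error only, so this check does not bear on variation between cultures. Log2 ratios used a prior count of 0.5. Exon lengths are unions of GENCODE M21 exons, and promoters come from RefSeq (GRCm38.p6), where 8 of the 10 genes matched. Alternatives were library totals, DESeq2 1.42.0 size factors, upper-quartile factors, a prior count of 2, other count filters, and the exact test of edgeR with a biological coefficient of variation set in advance. All 10 genes are reported, with Malat1, 8 regulators and receptors (1 of which is not reported here), and in each list up to 5 genes called at 2-fold and the 3 most abundant; other genes named were chosen after their values were seen. The genes and lists were chosen with earlier results of these data known. Of the list genes, Mesd and Tf were not found in the table by symbol.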

Additional observations from a re-analysis of the deposited data

How the results depend on the processing

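No paired analysis was possible because each group holds 1 library, so that no replicate could be left out either and between-culture variation is unknown. Of 60 log2 ratios of the 10 genes under 6 alternatives of scaling, prior count and filter, 57 kept their direction and their side of the test. The exceptions were Lipa, which turned from -0.00 to 0.0195 with library totals and to 0.0070 with upper-quartile factors, and Pltp, whose 0.0769 with library totals passed the test. The median of the 10 genes lay between -0.0585 and -0.0364. The 1.5-fold call of Abca1 held when the biological coefficient of variation was set to 0.1 and was lost at 0.2 and at 0.4, where 0 of the 10 genes were called. At 2-fold the count was 0 under every alternative run. The same 10 pathway genes were called under each scaling. Over all genes, 1090 were called at 2-fold, against 562 with at least 10 counts required in each library, and 667, 117 and 1 with the coefficient set to 0.1, 0.2 and 0.4. Scaling moved the median of all genes by at most 0.0221. Depth limits Lcat, the gene with the fewest counts.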

Other observations

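Outside the rule for named genes, 2 genes of intracellular sterol and lipase traffic were chosen after their values were seen. Sort1, which encodes sortilin, a sorting receptor that binds lipoprotein lipase, had 3939 counts in control and 2122 in knockdown cells. It was thus at 50.04% of the control level, just short of the 2-fold bar, with 95% limits of the log2 ratio at -1.08 and -0.92. Gramd1b, which encodes an endoplasmic reticulum protein that draws cholesterol from the plasma membrane, had 4956 and 2756 counts and a log2 ratio of -0.95 (95% interval -1.02 to -0.89). Both were thus lower than Abca1 in relative terms. Neither is in the list of mature adipocyte markers, but that list was written by hand, and the part of adipocyte content in their changes was not tested.

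Some genes of the lists had almost no counts in either library. Angptl4, an inhibitor of lipoprotein lipase, had 0 and 1 counts, Apom had 0 in both, and Rxrb had 8 and 2. All 3 lie on chromosome 17 between 33773750 and 35132050. Of the 19 nearest protein-coding genes of Apom found in the table, 0 had 10 counts summed over both libraries, and of the 20 nearest Rxrb, 9 did. Near Angptl4, 12 of 19 did, and 5 of those had at least 1000 counts, so low counts were not shared by the whole stretch. The part of read counting in these low values was not tested.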
